A study of Saccharomyces cerevisiae with 76 samples.

Results

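Binding of Abf1 was examined at 10 yeast chaperone genes, the HSP90 genes HSC82 and HSP82, the HSP70 genes SSA1, SSA2, SSB1, SSB2, SSC1 and KAR2, the HSP60 gene of the same name and the disaggregase gene HSP104. They were listed by name, out of 6002 protein-coding genes of the sacCer3 annotation. A ChIP-seq peak was assigned to a gene when its summit, the position of highest signal, lay inside the open reading frame (ORF) or at most 1000 bp from either end. This gave 9 of the 948 peaks of the series. The list was drawn up with the fold enrichment of the peaks near these genes already known, and the peaks were chosen by their measured summit positions, so these values and the number of peaks are a description and were not tested.

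The peaks come from Saccharomyces cerevisiae cells before depletion of Abf1, the t = 0 point of an anchor-away time course that lists 76 samples. The cells were Abf1-aa-V5, a BY4742 MATalpha strain with tor1-1 and fpr1del, RPL13A-FKBP12-NAT as the anchor and Abf1-FRB-yEGFP-3V5-hphMX4. They received DMSO for 90 min and no rapamycin. Every value below is thus V5 immunoprecipitation signal from tagged cells that were not depleted of Abf1. No value was compared with the untagged strain here. The 3 V5 immunoprecipitations were pooled against their 3 inputs before peaks were called, so each peak of the list used here has 1 value and no spread between replicates. The coverage of the single samples was not analysed here. Fold enrichment is the number of immunoprecipitated fragments over the summit divided by the background that the input gives, after 1 is added to each. Intervals in brackets are 95% exact Poisson intervals on the fragments, with the background held fixed, and they cover counting error only.

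Molecular chaperones bind unfolded or unstable proteins and help them to fold, to stay soluble or to reach their compartment. HSP90 acts late, on client proteins such as kinases, and HSP70 binds short exposed stretches of new or damaged proteins with the help of J proteins, while HSP60 encloses proteins in a barrel inside mitochondria. Many of these genes are controlled by Hsf1, which binds heat shock elements made of repeated GAA and TTC units. Abf1 is one of the general regulatory factors of yeast, abundant DNA-binding proteins that sit in many promoters of unrelated genes and help to keep them free of nucleosomes.

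The Abf1 sites at these genes are shown first, because 6 of the chaperone peaks hold one near the summit and 3 do not. An Abf1 motif is a match of at least 85% of the score range to a matrix of 15 positions built from the stronger peaks of the series, with its midpoint within 100 bp of the summit. The published matrix of the study was not used here and may pass other sites, and the counts among stronger peaks are not independent of a matrix built from them. Each line gives 21 bases of the RefSeq R64 (sacCer3) genome on the strand of the motif. The capitals mark the base 8 before the midpoint, where the study required a G or C for efficient crosslinking, and the 13 bases of the Abf1 consensus.
SSB2, chrXIV:251829-251849: tcGtATCATTCGAAACGgaaa
HSP60, chrXII:665218-665238: atAtGTCATCATATACGgacc
SSB1, chrIV:43823-43843: taTgATCATTTCGAACGggaa
SSA1 upstream peak, chrI:141823-141843: ttTcATCATTGTCAACGgcat
SSC1, chrX:521890-521910: gtAtATCACCCACAACGgcag
SSA1 downstream peak, chrI:139136-139156: agAcATCAATTAGTACGggcg
The first 5 of these sites matched the Abf1 consensus exactly, with scores of 94.2%, 95.6%, 94.5%, 93.9% and 91.6%. The site at the downstream peak of SSA1 had 1 mismatch and a score of 89.4%.

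At the other 3 chaperone peaks no motif lay within 100 bp. Their summits are shown as windows of 101 bases on the strand of the gene, with the summit as the middle base, beside the summit of SSA1, which does have a motif. Here the capitals mark matches to the 2-unit heat shock element TTCNNGAA or to the 3-unit elements GAANNTTCNNGAA and TTCNNGAANNTTC.
HSC82, chrXIII:632097-632197: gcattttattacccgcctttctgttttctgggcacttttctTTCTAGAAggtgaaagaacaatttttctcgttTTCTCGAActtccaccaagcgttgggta
HSP82, chrXVI:98809-98909: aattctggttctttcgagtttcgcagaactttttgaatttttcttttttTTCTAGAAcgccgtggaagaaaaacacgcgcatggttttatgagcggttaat
SSA2, chrXII:97662-97762: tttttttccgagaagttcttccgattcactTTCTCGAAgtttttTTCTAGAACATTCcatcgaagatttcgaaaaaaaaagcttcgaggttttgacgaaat
SSA1, chrI:141737-141837: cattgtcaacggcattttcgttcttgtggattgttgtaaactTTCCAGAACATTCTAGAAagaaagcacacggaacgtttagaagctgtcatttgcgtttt
In all 4 windows the letters TTCTAGAA lie at the summit or within 2 bp of it. The windows of the other upstream summits, at SSB1, SSB2, SSC1 and HSP60, are not shown and do not hold these letters.

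Of the 10 genes, 8 had at least 1 peak, where 26.5% of all protein-coding genes did. Every one of these 8 had a summit in the 500 bases before the start codon, where 13.0% of all genes had one. No chaperone gene had a summit inside its ORF, against 2.07% of all genes, and 5 had a peak of fold enrichment 4 or more, the minimum the study used for strong binding, against 13.1% of all genes. By peaks, 5 of the 9 passed this minimum, against 44.4% of all 948. HSP104 and KAR2 had no peak. The 9 chaperone peaks ranged in fold enrichment from 2.77 to 7.08 with a median of 4.88, against a median of 3.52 and a range of 2.00 to 68.2 over all 948 peaks. The highest of them, at SSB2, had rank 292 in the list. Of the 948 peaks, 231 lay inside tRNA genes. The 717 peaks outside tRNA genes had a median of 4.74, and 401 of them reached fold enrichment 4. The 8 upstream chaperone peaks, none in a tRNA gene, had a median of 4.89, and 5 of them reached it.

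**Figure D1:**
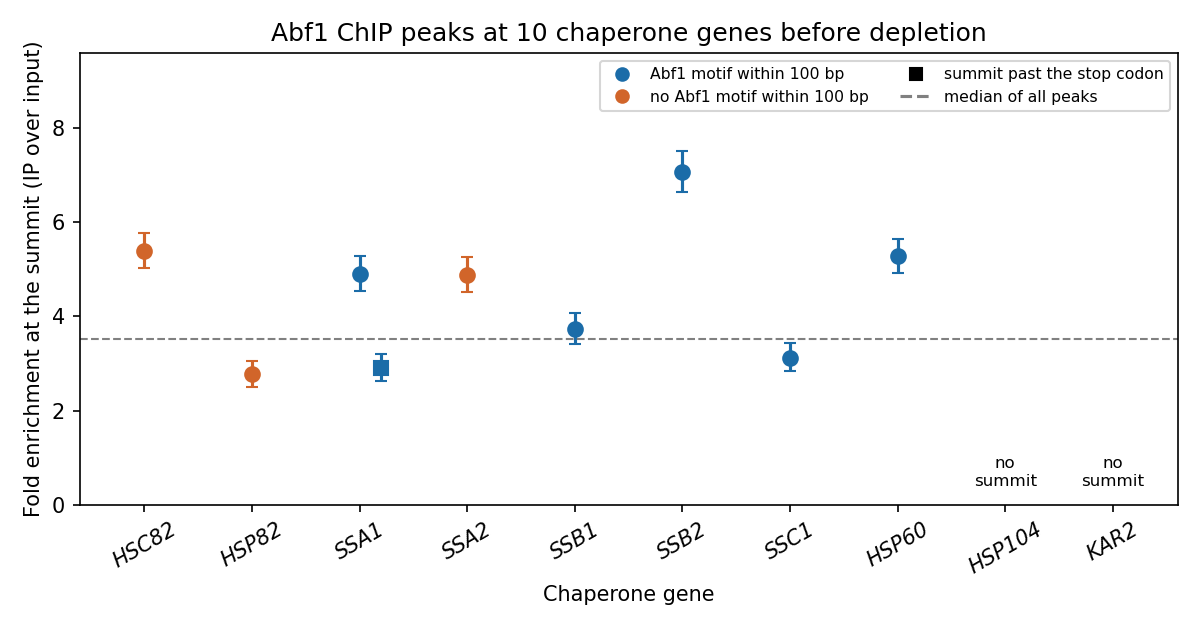
Fold enrichment at the summit of each chaperone peak (y axis, immunoprecipitation over input, 1 pooled value per peak) for the 10 genes on the x axis, with bars for the 95% counting interval, circles for upstream summits, a square for the summit past the SSA1 stop codon and a dashed line at the median of all 948 peaks, 3.52. SSB2 is highest at 7.08, HSP82 lowest at 2.77, the 3 peaks with no Abf1 motif span 2.77 to 5.40, and HSP104 and KAR2 have no summit.

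The HSP90 proteins are encoded by HSC82, whose product is present in unstressed cells, and HSP82, which is strongly heat-inducible. HSC82 (YMR186W, chrXIII:632355-634472, plus strand) had a summit 208 bp before its start codon with a fold enrichment of 5.40 (5.04 to 5.78), from 826 fragments over a background of 152. HSP82 (YPL240C, chrXVI:96496-98625, minus strand) had one at 234 bp with a fold enrichment of 2.77 (2.50 to 3.06), from 392 fragments over 141. The signal was thus higher at HSC82, by a ratio of 1.95 with an exact binomial interval of 1.73 to 2.21 that covers counting error only. Neither summit had an Abf1 motif within 100 bp, the best matches being 74.2% at HSC82 and 75.3% at HSP82. The HSP82 interval did hold a motif farther out, with a score of 96.2% at 423 bp from the summit and 657 bp before the start codon, overlapped by a second match of 85.3%. The base 8 before the midpoint of the 96.2% match was A, not the G or C that the study required for efficient crosslinking. The sequence of this match follows with the same marks as the first set, to show a site of high score that the summit did not fall on.
HSP82, chrXVI:99272-99292: taAtATCACCATGAACGatga
In the HSC82 interval the only match lay 685 bp from the summit, inside the ORF, with a score of 87.9%.

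SSA1 and SSA2 encode the main cytosolic HSP70 proteins, which are nearly identical. SSA2 (YLL024C, chrXII:95566-97485, minus strand) had a summit 227 bp before its start codon with a fold enrichment of 4.88 (4.52 to 5.26), from 688 fragments over 140. SSA1 (YAL005C, chrI:139503-141431, minus strand) had one at 356 bp with a fold enrichment of 4.90 (4.53 to 5.28), from 664 fragments over 135. The ratio of SSA2 to SSA1 was 1.00 with a counting interval of 0.895 to 1.11. The pair differed in sequence, as the best Abf1 match at SSA2 scored 72.7% with 3 mismatches, whereas SSA1 had an exact site 46 bp from the summit. SSA1 also had a downstream peak, 314 bp past its stop codon, with a fold enrichment of 2.90 (2.62 to 3.19), from 407 fragments over 140. That summit lay inside the tRNA gene TRN1, and 63.2% of the 50-base stretches around it occurred once in the genome, against 100% around each upstream summit. The part of repeated sequence in this value was not tested.

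SSB1 and SSB2 encode HSP70 proteins that bind nascent chains at the ribosome. SSB2 (YNL209W, chrXIV:252059-253900, plus strand) had a summit 239 bp before its start codon with a fold enrichment of 7.08 (6.65 to 7.53), from 1009 fragments over 142, the highest of the 10 genes. SSB1 (YDL229W, chrIV:44065-45906, plus strand) had one at 247 bp with a fold enrichment of 3.73 (3.41 to 4.07), from 503 fragments over 134. SSB2 was thus above SSB1 by a ratio of 1.90, with a counting interval of 1.71 to 2.12. Both summits had an exact Abf1 site, at 19 bp in SSB2 and 15 bp in SSB1, with scores of 94.2% and 94.5%. The sites differed at the base 8 before the midpoint, which was G in SSB2 and T in SSB1.

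SSC1 encodes the mitochondrial HSP70, which pulls proteins through the inner membrane, and HSP60 encodes the mitochondrial chaperonin. HSP60 (YLR259C, chrXII:663284-665002, minus strand) had a summit 224 bp before its start codon with a fold enrichment of 5.28 (4.92 to 5.65), from 834 fragments over 157. Its Abf1 site lay 2 bp from the summit, the closest of the 6 chaperone peaks with a motif. SSC1 (YJR045C, chrX:519638-521602, minus strand) had a summit at 274 bp with a fold enrichment of 3.12 (2.83 to 3.43), from 431 fragments over 137, and its exact site lay 24 bp away. Its interval held 3 motifs in all, the others with scores of 87.0% and 86.2%. The SSC1 summit lay 172 bp from the divergent gene TAH11, nearer than to SSC1, and was upstream of both genes.

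HSP104 (YLL026W, chrXII:88623-91349), whose product pulls proteins out of aggregates, and KAR2 (YJL034W, chrX:381327-383375), which encodes the HSP70 of the endoplasmic reticulum, had no summit within 1000 bp. The nearest lay 1237 bp past the HSP104 stop codon with a fold enrichment of 3.16, and 2929 bp before the KAR2 start codon with a fold enrichment of 2.11. Both of those summits were inside tRNA genes and without an Abf1 motif. In the 500 bases before the start codon, the best Abf1 match scored 81.6% at HSP104 and 77.9% at KAR2, both under the limit of 85%. By the same measure it was 82.2% at HSC82, 81.0% at HSP82 and 79.6% at SSA2, genes that did have a peak. Among the 10 genes such a window held a motif in 5, namely SSA1, SSB1, SSB2, SSC1 and HSP60, against 34.7% of all genes.

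The farthest summit inside the distance limit was the upstream summit of SSA1 at 356 bp, and the nearest outside was 1168 bp past the stop codon of HSP82, with a fold enrichment of 44.8 and a motif. The next lay 1230 bp past the SSB2 stop codon, with a fold enrichment of 3.30. A limit of 500 bp gave the same 9 peaks and one of 2000 bp gave 13.

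**Figure D2:**
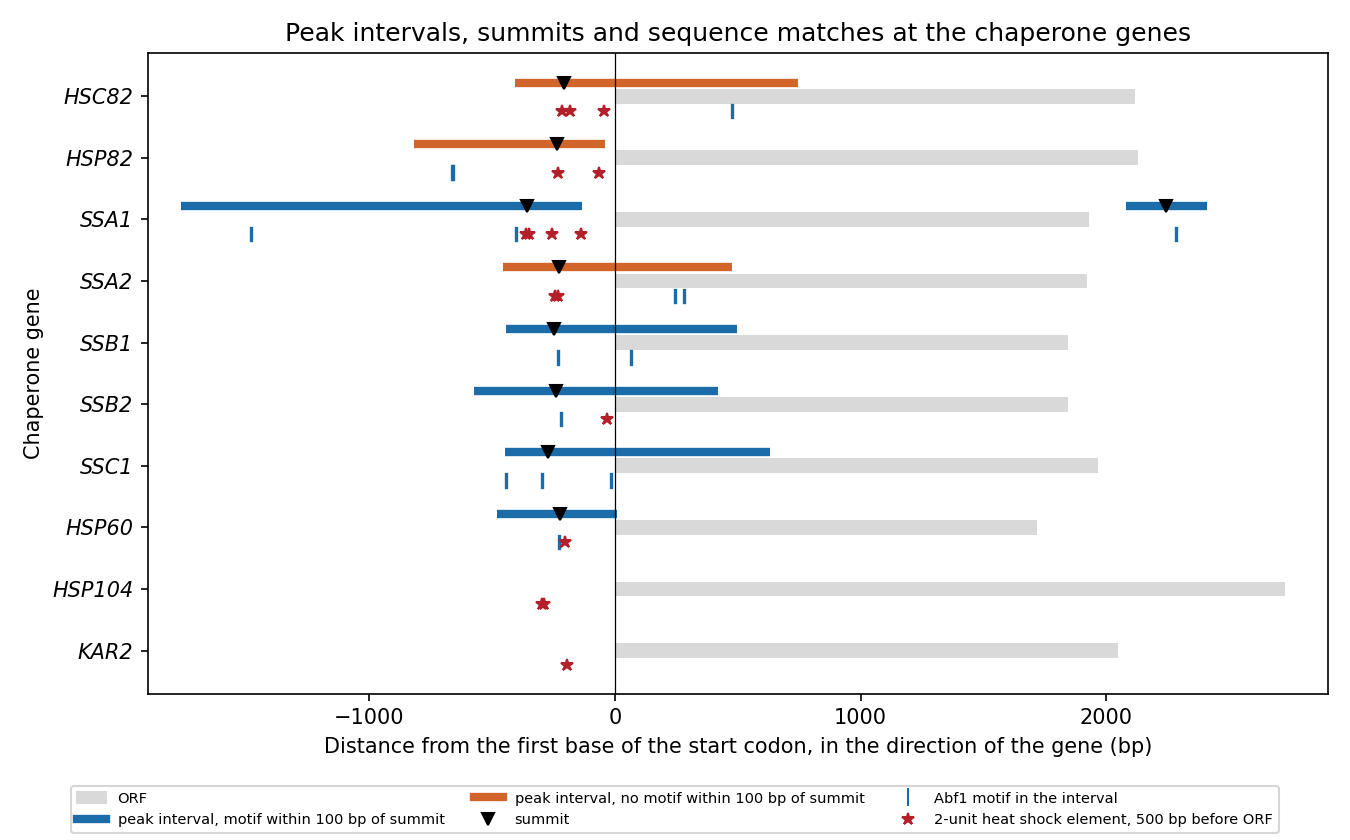
Map of each chaperone gene on a scale in bp from its start codon (x axis, in the direction of the gene), with the ORF in grey, peak intervals in blue where a motif lies within 100 bp of the summit and in orange where none does, summits as triangles, Abf1 motifs in the interval as blue ticks and 2-unit heat shock elements as stars. The 8 upstream summits lie 208 to 356 bp before the start codon, and the intervals of HSC82, SSA2, SSB1, SSB2 and SSC1 run far into the ORF.

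The upstream summits of the 8 genes lay at a similar distance from the start codon. They ranged from 208 to 356 bp with a median of 236.5 bp, and all but that of SSA1 fell between 208 and 274 bp. Over the 780 genes with a summit in this region the median was 235 bp, with quartiles of 163 and 354 bp. The upstream neighbour was transcribed in the same direction at HSC82, SSA2, SSB1 and SSB2, and in the opposite direction at HSP82 (beside YAR1), SSA1 (EFB1), SSC1 (TAH11) and HSP60 (LCB5).

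Peaks without an Abf1 motif were then counted over all peaks and among the stronger ones. Of the 9 chaperone peaks, 3 had no Abf1 motif within 100 bp, where 33.5% of all 948 peaks had none. Most of those, 208 of 318, lay in tRNA genes. Outside tRNA genes, 3 of the 8 upstream chaperone peaks had none, against 15.3% of 717 peaks. Among peaks of fold enrichment 4 or more, 2 of the 5 chaperone peaks had none, those of HSC82 and SSA2, against 5.23% of the 421 such peaks in the list. Those 2 were among 22 strong peaks with no motif, of which 12 lay in tRNA genes, 1 in another RNA gene and 9 outside any annotated gene. HSC82 ranked 7 and SSA2 ranked 10 of the 22 by fold enrichment. With the motif allowed anywhere in the peak interval, a setting chosen after the data were seen, 0 of the 9 chaperone intervals lacked one, against 7 of the 421 strong peaks and 24.7% of all peaks. Longer intervals offer more places for a match, and the part of their length in this count was not tested. At SSA2 the interval matches scored 85.9% and 85.2% and lay inside the ORF, 472 and 509 bp from the summit.

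The base 8 before the motif midpoint was G in SSB2 alone of the 6 chaperone peaks with a motif. It was T in SSB1 and in the upstream site of SSA1, and A in HSP60, SSC1 and the downstream site of SSA1. Over the 630 peaks of the list with a motif, 37.9% had G or C there in every motif. Together with a fold enrichment of 4 or more, this was met by SSB2 alone of the chaperone peaks and by 20.1% of all peaks. The paper left out sites without G or C there and reports that their low signals did not fall during depletion. It gives rebinding of cytosolic Abf1 during ChIP as the likely source. Whether the chaperone peaks fell during depletion was not analysed here.

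Heat shock elements lay close to several of the summits. The 3-unit element was found in the 500 bases before the start codon of SSA1, SSA2, HSP60, HSP104 and KAR2, 5 of the 10 genes, against 1.48% of all genes, on either strand and with overlapping matches counted once per gene. Within 100 bp of the summit it was found in 3 of the 9 chaperone peaks, those of SSA1, SSA2 and HSP60, against 1.27% of all peaks, which is 12 peaks, and 0.450% of all genome windows of 201 bp. In 2 of the 948 peaks the summit base itself lay inside such an element, and these were the SSA1 and SSA2 peaks, where the elements read TTCCAGAACATTC and TTCTAGAACATTC on the strand of the gene. At HSP60 the element GAATTTTCCAGAA began 14 bp past the summit, with the Abf1 site 2 bp from the summit on its other side. Counting summits inside or near these elements was not planned in advance. A match is only a run of letters and does not show that Hsf1 was bound.

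The 2-unit element TTCNNGAA is more common, at 8 of the 10 chaperone genes and 21.2% of all genes in the 500 bases before the start codon. Only its position relative to the summit is of interest here, and that comparison was chosen after the positions at these genes had been seen. It lay at the summit or within 2 bp of it in 4 of the 9 chaperone peaks, those of HSC82, HSP82, SSA1 and SSA2, against 1.16% of all peaks, or 11 in number, and 0.620% of all genome bases. For the exact letters TTCTAGAA these were the same 4 chaperone peaks out of 5 peaks in the whole list. All 3 chaperone peaks with no Abf1 motif were among these 4. Over the whole list, 4 of the 11 peaks with TTCNNGAA there had no Abf1 motif, against 33.5% of all 948 peaks. With TTCTAGAA it was 3 of the 5, the same 3 chaperone peaks. HSC82 in addition had TTACCCG, the core of the site of the general regulatory factor Reb1, 36 bp upstream of the summit, where 3.38% of all peaks had it within 100 bp.

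A heat shock element did not always come with a peak. HSP104 had the overlapping elements TTCCAGAATTTTC and GAATTTTCTAGAA at 302 to 285 bp before its start codon, and KAR2 had GAACCTTCTGGAA and TTCTGGAAATTTC at 205 to 188 bp, yet neither had a summit there. Of the 89 genes with a 3-unit element in the 500 bases, 17 (19.1%) had a summit in the same stretch, against 13.0% of all genes.

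Peak intervals reached far into the coding region at 5 of the chaperone genes. The paper counts weak apparent signal over ORFs and tRNA genes as a known ChIP artefact, which its minimum fold enrichment of 4 also removed. Of the 5 genes, SSC1 and SSB1 lay under that minimum. The part of such signal in these intervals, and in the SSA1 peak inside TRN1, was not tested. The share of the interval inside the ORF was 64.7% at HSC82, 58.5% at SSC1, 53.0% at SSB1, 51.3% at SSA2 and 42.2% at SSB2. It was 1.64% at HSP60 and 0% at HSP82 and at the upstream peak of SSA1. With a limit of 40%, set after these values were seen, 5 of the 8 upstream peaks passed, against 4.08% of 784 pairs of a gene and an upstream summit. The 32 pairs that passed also included genes of other kinds, among them DED1 (71.3%, the highest), HAC1 (63.5%), RPL3 (62.2%) and FBA1 (54.5%). The median share was 46.7% for the chaperone genes, against 1.45% for all pairs, and the median interval was 968 bp long, against 542 bp.

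**Figure D3:**
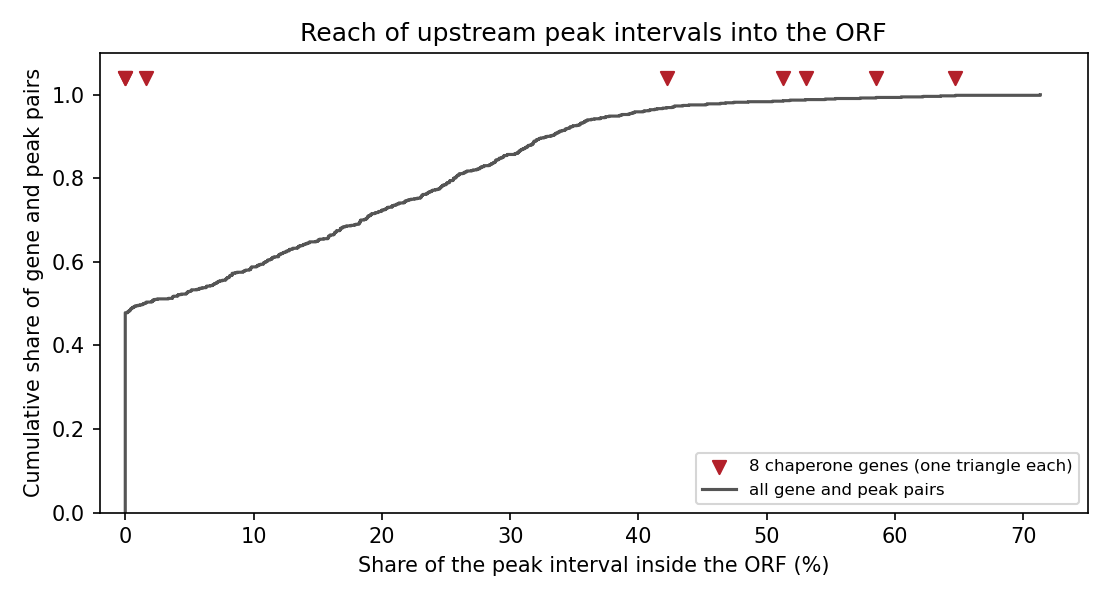
Cumulative share (y axis) of all 784 pairs of a gene and an upstream summit by the share of the peak interval that lies inside the ORF (x axis, %), with the 8 chaperone genes as triangles above the curve. Of the triangles, 5 lie between 42.2% and 64.7%, past the 40% that 4.08% of all pairs reach, and the others lie at 0% (HSP82 and SSA1, overlapping) and 1.64% (HSP60).

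The reach was one-sided at these genes. From the summit, the HSC82 interval ran 955 bp toward and into the ORF and 200 bp away from it, and the SSC1 interval ran 904 bp and 173 bp. At SSB1 it ran 746 bp and 196 bp, at SSA2 705 bp and 228 bp, and at SSB2 657 bp and 335 bp. For 4 of the 8 upstream peaks the ORF side was at least 2 times the other, against 5.48% of all pairs. This factor was not set in advance, and SSB2 fell just under it. The share of all pairs that ran away from the ORF by this factor was not counted. HSP60 had 231 bp and 256 bp, close to symmetric. HSP82 ran the other way, with 194 bp toward the ORF and 582 bp away from it.

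The upstream interval of SSA1 also ran away from its own gene, 1408 bp against 223 bp. It covered the whole ORF of the divergent gene EFB1, which encodes a translation elongation factor, so that 60.5% of the interval lay in that ORF. The SSB2 interval likewise took in 259 bp of the upstream gene MER1, which was 26.1% of the interval and 31.9% of that ORF, beside the 42.2% in SSB2 itself, and its summit lay 77 bp from MER1. At SSB1 the interval took in 86 bp of PTP1, or 9.12% of its length, and the overlap with the upstream ORF was 24 bp at HSC82, 2 bp at SSC1 and 0 bp at HSP82, SSA2 and HSP60. The upstream SSA1 summit lay 387 bp from EFB1 and was upstream of both genes. A second summit in the SSA1 interval lay inside EFB1, 1600 bp from SSA1, with a fold enrichment of 2.12 and no motif.

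Only uniquely mapping reads were kept, and paralogues share sequence in their ORFs. Of the 50-base stretches in the ORF, 42.1% occurred once in the genome at SSA1, 41.8% at SSA2, and 56.8% at each of SSB1 and SSB2. At HSC82 and HSP82 it was 93.6%, and at SSC1, HSP60, HSP104 and KAR2 it was 100%. The part of shared sequence in the reach of the intervals was not tested.

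Partner proteins of these chaperones were examined as 7 further lists with 63 genes, by the same rule. A peak was found at 8 of the 10 chaperone genes, against 20 (31.7%) of these 63 and 26.5% of all genes. The median fold enrichment was 4.88 for the 9 chaperone peaks, against 7.32 for the 21 peaks of the partners. Of the 7 lists, the chaperonin list had the largest share of genes with a peak, 7 of 9, made up of HSP10, the co-chaperonin of HSP60, and 6 of the 8 subunits of CCT, the cytosolic chaperonin. Co-chaperones of HSP90 had a peak at 5 of 12 genes, other HSP70 and HSP110 genes at 3 of 8, J proteins and exchange factors at 4 of 22 and heat shock regulators at 1 of 3. Small heat shock proteins with HSP78 had none at 4 genes, and folding genes of the endoplasmic reticulum none at 5.

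Several partners had a higher fold enrichment than any of the 10 chaperone genes. CCT6, CCT4 and CCT3 had fold enrichments of 35.2, 26.8 and 23.4, and CCT7 had 4.84. SSA1 and SSA2 had 4.90 and 4.88, against 31.7 at YDJ1, a J protein that stimulates the SSA proteins. HSC82 and HSP82 had 5.40 and 2.77, against 29.0 at STI1, which links HSP70 to HSP90, and 7.32 and 4.18 at SGT1 and AHA1, further HSP90 co-chaperones. HSP60 had 5.28, against 20.0 at HSP10. SSB2 and SSB1 had 7.08 and 3.73, against 16.5 at SSZ1, an HSP70-like protein of the ribosome-associated complex. FES1, an exchange factor, had 9.99, SSQ1, a mitochondrial HSP70, had 14.1, MDJ1, a mitochondrial J protein, had 5.50, and MSN4, a stress regulator, had 9.42. The other 7 partner peaks, at 6 genes, lay between 2.00 and 3.75. The summits of SSQ1, MDJ1 and AHA1 lay past the stop codon, and that of MSN4 had no Abf1 motif within 100 bp. The SSQ1 summit was also an upstream summit of the genes ARC18 and ROM2. The summits of YDJ1, CCT4 and SGT1 were likewise shared, being upstream of MTQ1, YDL144C and NOB1 as well. No motif was found at 3 of the 9 chaperone peaks, against 4 of the 21 peaks of the partners. At least 40% of the interval lay inside the ORF at 5 of the 8 upstream chaperone peaks, against 0 of 15 at the partners, where the highest share was 38.7% and the median 19.1%. That limit was set after the shares were seen, and the lowest chaperone share above it was 42.2%, so these counts depend on where it was placed.

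**Figure D4:**
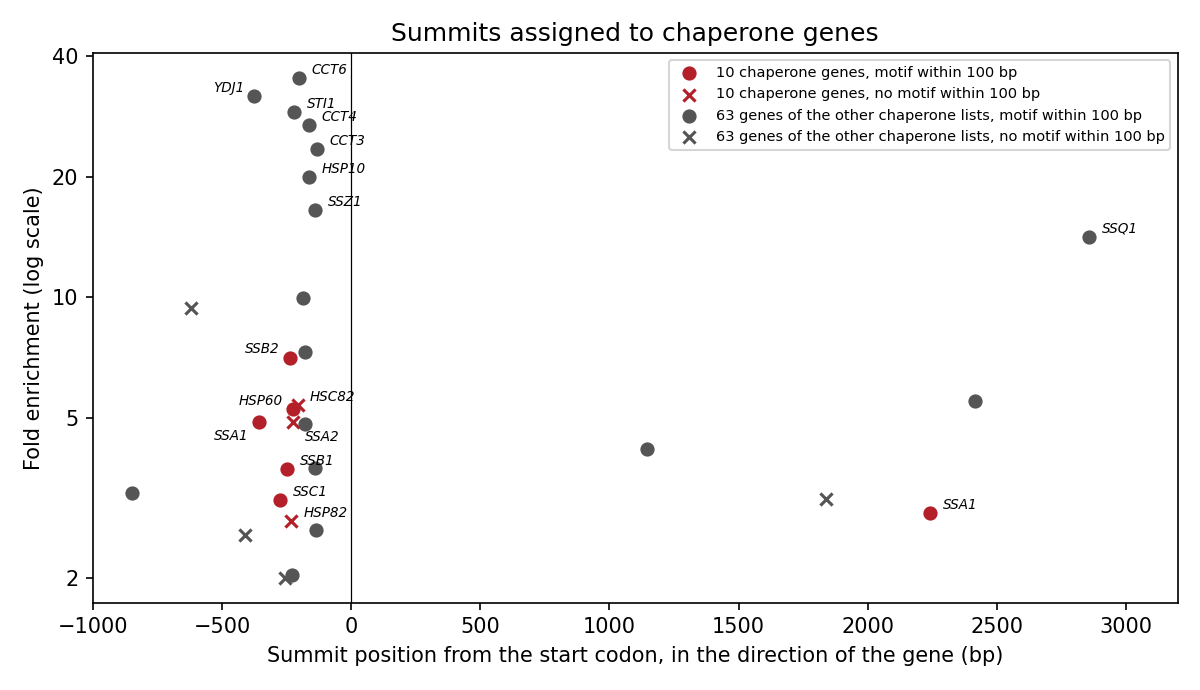
Fold enrichment (y axis, log scale) against the summit position in bp from the start codon (x axis) for peaks at the 10 chaperone genes (red) and at the 63 genes of the other chaperone lists (grey), with circles where an Abf1 motif lies within 100 bp and crosses where none does. The chaperone peaks lie between 2.77 and 7.08, and the named partner genes reach 35.2 at CCT6.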

How the data were processed

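Per the labels and methods, HISAT2 2.0.5 placed the read pairs on sacCer3, and the authors removed duplicates by molecular identifiers and reads with several places. MACS2 2.1.1.20160309 then compared 3 pooled immunoprecipitations with 3 inputs, at q 0.001 and fold enrichment 2. The deposited list gives 948 summits in 864 intervals, each with a fold enrichment (a ratio), a −log10 p-value and −log10 q-value, a score that the authors' caller derived from q and was not used, and the summit offset.

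Fragments over each summit were solved from the deposited fold enrichment and −log10 p-value and came out within 0.01 of a whole number for 941 of 948 peaks. They ranged from 258 to 10164, over backgrounds of 125 to 211, and counting intervals follow from these depths. The published Abf1 matrix was not used here. The matrix came from 403 sites in peaks of fold enrichment 4 or more, with a pseudocount of 0.8 in total per position, as log2 odds. Sequences and gene models are RefSeq R64. The members and gene lists were chosen with earlier results of these data known. All listed genes were named, with list genes of fold enrichment 4 or more. No test was run, since the pooled list has 1 value per peak; the 3 replicates were not analysed singly here. Alternatives covered distance, interval overlap, summits per interval, fold enrichment and motif settings. The search and the solution of fragments were tested on simulated data. Coverage at single time points and the untagged strain were not analysed here. Calculations used scipy 1.17.1, pandas 2.3.3 and numpy 2.4.6 under Python 3.11.15, with figures from matplotlib 3.10.9.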

Additional observations from a re-analysis of the deposited data

How the results depend on the processing

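Of 38 combinations of a result and an alternative setting, 33 stayed within 1.5 times the count, or within the counting interval of the middle peak for the median fold enrichment, and 5 moved further. The number of chaperone genes with a peak was 8 with limits of 500 bp and 1000 bp, 9 with 2000 bp and 7 with a fold enrichment minimum of 3. Counting any overlap of the interval with the ORF in place of the summit gave 6 chaperone genes with a peak in the ORF, in place of 0, and with 1000 bp on each side it gave a median fold enrichment of 4.30, in place of 4.88. A limit of 2000 bp gave a median of 3.73 and 5 chaperone peaks with no motif, in place of 3, because it took in more peaks. A motif anywhere in the interval, chosen after seeing the data, left 0 chaperone peaks without one. The share of all genes with a peak was 19.8% at 500 bp and 37.3% at 2000 bp. No paired analysis was possible because the peak list used here holds 1 value per peak for the 3 replicates together, and for the same reason no replicate was left out. The samples are separate in the design, but their coverage was not analysed here. The fragments per chaperone summit, 392 to 1009, set the width of the counting intervals, and the biological spread is not covered by them.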

Other observations

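Other short sequence elements were counted in the 500 bases before the start codon, on both strands, as a description. The stress response element AGGGG, the binding site of Msn2 and Msn4, lay before 4 of the 10 chaperone genes (HSP82, SSA1, SSC1 and HSP104), against 34.1% of all genes. HSP104 had 3 copies, between 252 and 168 bp before its start codon, and no Abf1 peak. The letters TATAAA lay before 8 of the 10, all but SSA1 and HSP104, against 60.5% of all genes. The Reb1 letters TTACCCG lay before HSC82 alone, against 10.1% of all genes.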
